A study of Caenorhabditis elegans with 2 samples.

Results

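The intervals described here are the CEBP-1 binding regions that the authors' optimal list for Caenorhabditis elegans enters more than once, with the same chromosome, start and end but different summits. A summit is the position of highest signal within a peak. The intervals were chosen by that rule on the optimal list in the ce11 build, from the interval ends and summit positions in the list. It finds 271 of 5654 intervals (4.79%), with 599 of the 5982 summits. The remaining 5383 intervals have 1 summit and are called single-summit intervals below. Number, spacing and signal of summits and interval width come from the same peak calling as the rule, so they are given as a description, with no test. The label of broad intervals refers to their width, at a median of 764 bp against 402 bp for single-summit intervals. Width alone does not set them apart, since 94 single-summit intervals were wider than 764 bp.

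The data are from ChIP-seq, chromatin immunoprecipitation followed by sequencing, with an anti-GFP antibody on sonicated chromatin of whole young adults of mixed sex. The animals were 63 hours past synchronization as L1 larvae that had been starved after bleaching. All were of strain OP563, genotype unc-119(tm4063) III; wgIs563, a line that stably makes CEBP-1 fused at its C-terminus to GFP-FLAG. The study has 1 group of 2 biological replicates, numbered 3 and 7, so no groups can be compared, and both replicates share the transgene and the unc-119 mutation. Binding was read from all tissues and both sexes together in 1 transgenic line, and an untagged strain was not analysed here. A peak list has no expression values, so the tissue could not be checked against marker genes. Read depth is unknown.

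CEBP-1 belongs to the C/EBP group of basic leucine zipper (bZIP) transcription factors. C/EBP proteins bind DNA as dimers, each partner contacting one arm of a palindromic site close to TTRCGYAA (R is A or G, Y is C or T). In worms CEBP-1 is known as a downstream effector of the DLK-1 kinase cascade in axon regrowth and as a regulator of stress and immune responses.

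The sequences at the summits of the 12 strongest several-summit intervals are shown first. Among these 12, the 8-base sequence TTGCGAAA lies within 50 bp of the strongest summit in 10 and of a weaker summit in fewer. That sequence came from an earlier search of these data and is not particular to several-summit intervals. In the 10% of intervals with the highest signal, the strongest summit had it in 40.6% of several-summit and 55.9% of single-summit intervals. Over all intervals the share was 15.3%. Shown are the highest 2 summits of each of the 12 intervals that lie on chromosomes III, IV, V and X. Left out are windows that overlap an annotated UTR or snRNA gene. Each line gives 101 bases, 50 on each side of the summit, on the plus strand of the WBcel235 assembly from RefSeq, which is the ce11 sequence. Capitals mark TTGCGAAA (or its reverse complement TTTCGCAA), TTRCGYAA and CACGTG. Intervals are numbered by the signal of their strongest summit.
Interval 1, strongest summit, intergenic apart from the ncRNA gene C30E1.9, chrX:16930888-16930988: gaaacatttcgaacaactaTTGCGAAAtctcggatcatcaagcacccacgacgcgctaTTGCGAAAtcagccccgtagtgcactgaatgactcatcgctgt
Interval 1, weaker summit, intergenic, chrX:16929560-16929660: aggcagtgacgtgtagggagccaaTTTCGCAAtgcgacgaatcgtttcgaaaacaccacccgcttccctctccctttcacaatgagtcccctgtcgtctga
Interval 2, strongest summit, intergenic, chrX:14476732-14476832: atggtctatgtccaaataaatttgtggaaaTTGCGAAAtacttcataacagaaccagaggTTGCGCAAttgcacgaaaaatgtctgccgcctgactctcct
Interval 2, weaker summit, intergenic, chrX:14477438-14477538: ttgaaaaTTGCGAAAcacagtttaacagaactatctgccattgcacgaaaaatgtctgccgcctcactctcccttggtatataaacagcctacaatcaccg
Interval 3, strongest summit, intron of dhc-4, chrIII:10989501-10989601: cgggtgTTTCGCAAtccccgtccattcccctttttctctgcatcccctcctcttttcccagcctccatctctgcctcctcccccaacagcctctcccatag
Interval 5, strongest summit, in the snoRNA gene C34E11.20, chrX:11792121-11792221: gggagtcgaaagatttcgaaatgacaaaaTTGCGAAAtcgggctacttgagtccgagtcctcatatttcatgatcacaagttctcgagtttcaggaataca
Interval 5, weaker summit, intergenic, chrX:11791473-11791573: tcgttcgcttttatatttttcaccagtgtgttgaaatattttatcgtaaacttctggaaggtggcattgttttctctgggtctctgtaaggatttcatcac
Interval 7, strongest summit, promoter of Y105C5A.1272, chrIV:15646766-15646866: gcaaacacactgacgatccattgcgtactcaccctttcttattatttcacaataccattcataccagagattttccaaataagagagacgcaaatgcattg
Interval 8, strongest summit, intron of Y51H4A.13, chrIV:16645651-16645751: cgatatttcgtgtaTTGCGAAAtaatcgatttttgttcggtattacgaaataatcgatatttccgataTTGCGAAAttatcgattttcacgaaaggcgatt
Interval 8, weaker summit, intron of Y51H4A.13, chrIV:16645990-16646090: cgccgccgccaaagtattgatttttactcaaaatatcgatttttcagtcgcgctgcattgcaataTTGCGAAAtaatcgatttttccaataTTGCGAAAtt
Interval 9, weaker summit, coding exon of stdh-1, chrV:13907790-13907890: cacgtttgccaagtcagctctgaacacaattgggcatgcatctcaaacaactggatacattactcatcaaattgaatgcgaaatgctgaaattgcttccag
Interval 10, strongest summit, promoter of plrg-1, chrV:10808102-10808202: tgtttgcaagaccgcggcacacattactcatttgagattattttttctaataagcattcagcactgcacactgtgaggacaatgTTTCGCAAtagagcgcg
Interval 10, weaker summit, promoter of plrg-1, chrV:10808308-10808408: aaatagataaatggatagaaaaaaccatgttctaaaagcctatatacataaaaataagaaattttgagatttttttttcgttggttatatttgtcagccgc
Interval 11, strongest summit, promoters of rpl-15 and K11H12.8, chrIV:654880-654980: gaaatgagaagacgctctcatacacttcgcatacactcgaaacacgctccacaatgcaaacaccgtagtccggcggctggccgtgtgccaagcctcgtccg
Interval 11, weaker summit, promoters of rpl-15 and K11H12.8, chrIV:655081-655181: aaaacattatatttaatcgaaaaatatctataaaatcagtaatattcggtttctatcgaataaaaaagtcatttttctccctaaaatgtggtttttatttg
Interval 12, strongest summit, intergenic, chrV:1472127-1472227: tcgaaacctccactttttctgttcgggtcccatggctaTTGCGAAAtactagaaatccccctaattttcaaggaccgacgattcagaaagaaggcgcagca
Interval 12, weaker summit, intergenic, chrV:1471435-1471535: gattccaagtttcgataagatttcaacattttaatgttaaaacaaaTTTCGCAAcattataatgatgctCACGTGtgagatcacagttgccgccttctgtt

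Intervals 1, 2, 8 and 12, whose printed summits lie 339 to 1328 bp apart, have TTGCGAAA at both. Intervals 3, 5, 9 and 10 have it at the strongest summit alone, which for interval 9 is not shown. Intervals 7 and 11 have it at neither summit. Intervals 1 and 8 have 2 copies within their strongest window. The printed windows of interval 2 share a run of 25 identical bases, and those of interval 8 a run of 22 that includes TTGCGAAA. In intervals 1, 5, 10, 11 and 12, compared in the same way on both strands, the longest shared runs were 10, 8, 9, 6 and 9 bases.

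Most of these intervals have 2 summits, and the summits mostly stand about 200 bp apart. There were 236 intervals with 2 summits, 25 with 3, 2 with 4, 6 with 5 and 2 with 7. Widths ran from 393 to 6727 bp, and the median width was 710.0 bp with 2 summits, 1585 bp with 3 and 5599.5 bp with 7. Together the several-summit intervals covered 282456 bp, 12.6% of the length of all intervals. A width of 2000 bp or more was reached by 22 of them and by 0 of the single-summit intervals, whose widest had 1764 bp. Among single-summit intervals 31.7% had exactly 430 bp, a fixed width in the list that 0 of the 271 had.

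The 328 distances between neighbouring summits started at 199 bp and had a median of 206 bp, and 192 of them (58.5%) were at most 210 bp. Another 15 lay from 300 to 499 bp, and 66 (20.1%) were 500 bp or more, up to 2834 bp. Nowhere in the optimal list did any pair of summits, within an interval or between intervals, lie nearer than 199 bp. The same minimum of 199 bp held in the pooled list and in the list of each replicate, where the median spacing was 205 bp in the pooled list, 205 bp in replicate 3 and 203 bp in replicate 7. Whether the peak caller imposes this minimum is not given in the sources used here, so the short spacings cannot be read as a distance between binding sites.

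**Figure D1:**
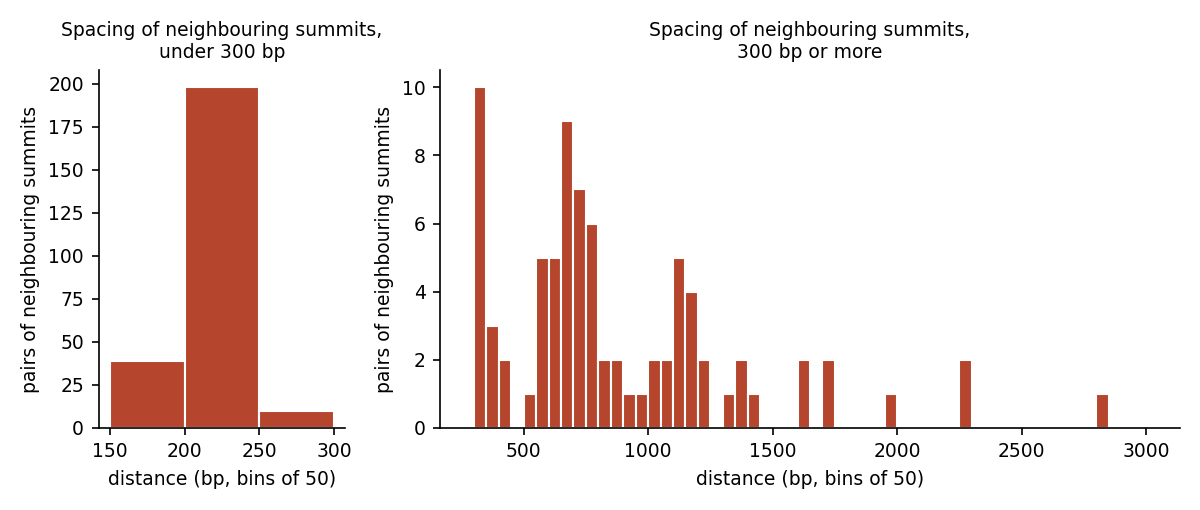
Distance between neighbouring summits of 1 interval, in bins of 50 bp, for the 328 pairs. The left panel shows spacings under 300 bp and the right panel those of 300 bp or more, on different count axes. Most pairs fall near 200 bp, and the rest spread out to 2834 bp.

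A division at 300 bp, chosen after the spacings were seen, leaves 217 intervals in which every neighbouring distance is under 300 bp (close-spaced) and 54 with at least 1 longer distance (wide-spaced). Close-spaced intervals had a median width of 678 bp, and 1 of them had 3 or more summits. Wide-spaced intervals had a median width of 1669.5 bp and a median distance of 910.0 bp from the outermost summit to the other, and 34 of them had 3 or more summits. Of the 35 intervals with 3 or more summits, 28 had the strongest at an end of the row. In the 25 of them with 3 summits every position but the middle is an end, so the count was not read as a preference. By chromosome the 271 made up 3.90% (IV) to 5.52% (III) of the intervals.

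The strongest summit of a several-summit interval had a median signal of 812 (184 to 7891), and the weakest a median of 254. Single-summit intervals had a median of 289, and their highest value was 20103. The signal is the authors' value and ranks summits within the list only. The strongest summit exceeded the weakest by a median of 2.82 times, with 36 intervals under 1.5 times and 54 over 5 times. The largest ratio was 25.3, in interval 5. Since no listed summit has a signal below 148, the rule itself ties the choice of intervals to signal, and the following shares are a description of it. Several-summit intervals made up 17.0% of the 10% of intervals with the highest signal, 14% of the next 10%, 8.66% of the third such group, 2.83% of the fourth and 0 of the 566 in the lowest 10%. Among the 25 strongest summits 3 belonged to them, and among the 100 strongest 18.

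**Figure D2:**
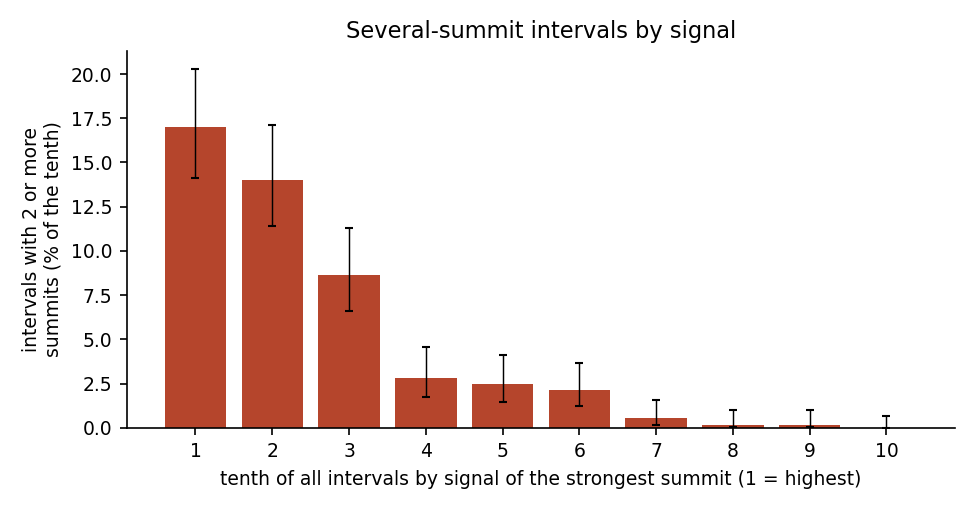
Share of intervals with 2 or more summits in 10 groups of about equal size, ordered by the signal of the strongest summit (1 is the highest). Bars give the percentage and lines the Wilson 95% interval, which covers counting error only. The share is 17.0% in the highest group and 0 in the lowest.

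Near the list's lowest signal, 32 of the 271 had their weakest summit within 10% above 148. Outside the optimal list, 227 single-summit intervals held further summits in the pooled list. Only further summits below 148 were taken, which sets the upper end of their signals. The next such summit had signals from 13.7 to 146 (median 78.3), and 16 lay within 10% below 148. The strongest region of the series, upstream of nipi-3, a Tribbles-family pseudokinase gene of innate immunity, is among the 227. It spans X 15606780 to 15608212 (1433 bp) with a signal of 20103, and its other pooled summit had 127. Likewise istr-1 (V 12697415 to 12698075) had 2643 and 27.4, and allo-1 (IV 10696696 to 10697590) had 2492 and 37.6. The pooled list held more summits for 41 of the 271 intervals as well.

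The replicates, whose peaks were listed separately, show how far the extra summits recur. Replicate lists fed the pooled list, so they are not independent of the choice of intervals. Of the 599 summits, 406 (67.8%, Wilson 95% interval 63.9 to 71.4) were matched within 100 bp by the 5982 highest-ranked peaks of replicate 3 and also of replicate 7, against 59.3% of single summits and 60.2% of all optimal summits. By role, the strongest summits were in the top list of replicate 3 in 95.9% and of replicate 7 in 89.7% of intervals. For the weaker summits these shares were 78.7% in replicate 3 and 69.2% in replicate 7. At any rank of the 30000 listed peaks, weaker summits were found in 93.0% of cases in replicate 3 and 87.5% in replicate 7, and single summits in 95.8% and 92.2%.

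For each summit the signal of the nearest summit within 100 bp in a replicate was divided by that replicate's median over the optimal list (204 in replicate 3 and 112 in replicate 7). This is the relative signal used below, with a level of 1 for a typical listed summit. The strongest summits had medians of 2.64 in replicate 3 and 2.51 in replicate 7. The weaker summits had 0.90 in replicate 3 and 0.983 in replicate 7, near the single summits at 0.966 and 0.961.

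Both replicates listed a separate summit for every summit of the interval in 190 of 271 intervals (70.1%). Replicate 3 alone did so in 88.6% and replicate 7 in 79.7%, and 5 intervals were separated in neither. Wide-spaced intervals were separated in both in 59.3% (32 of 54) and close-spaced ones in 72.8% (158 of 217). A wide-spaced interval has more summits to match, and the difference between these shares was not tested. The replicates less often joined the summits into 1 interval. An interval with several summits that covered all those of the optimal interval was found for 77.9% in replicate 3, 29.9% in replicate 7 and 24.4% in both, and for 45 intervals in neither. Replicate 3 listed 439 intervals with several summits among its 30000 peaks and replicate 7 listed 199. Whether depth, which is unknown, has a part in that was not tested.

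Within the 190 separated intervals, both replicates put the highest signal at the same summit in 180 (94.7%). The share was 70.0% (14 of 20) where the strongest exceeded the weakest under 1.5 times, 94.9% (75 of 79) from 1.5 to 3 times and 91 of 91 above 3 times. These ratios are those of the optimal list, which derives from both replicates, so the 3 shares are not an independent measure of agreement. The median ratio of strongest to weakest was 3.06 in replicate 3 and 2.64 in replicate 7. Positions were close, with replicate summits a median of 22.0 bp apart and 83.2% within 50 bp of each other. In the 175 such intervals with 2 summits, the spacing differed between replicates by a median of 6.00 bp. Their median spacing was 204 bp in replicate 3 and 203 bp in replicate 7, near the 199 bp minimum of both lists. The small difference therefore cannot be read as agreement between replicates.

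The 12 strongest intervals show both patterns. Interval 1, at X 16929262 to 16932094 (2833 bp), held 2 summits 1328 bp apart that ranked 7 and 8 of all summits, with signals of 7891 and 7356. The strongest summit, inside the ncRNA gene C30E1.9, had relative signals of 21.2 in replicate 3 and 32.2 in replicate 7 (26.7 ± 7.78, mean ± SD, n = 2). The weaker one, between genes, had 23.5 and 22.9 (23.2 ± 0.439, n = 2). Replicate 3 thus placed the weaker summit higher and replicate 7 the other, so their order is within replicate spread. The nearest protein-coding 5′ end, of C30E1.4, lay 5674 bp from the weaker and 7002 bp from the strongest summit.

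Interval 2, at X 14476471 to 14477772, had one dominant summit. Its strongest summit had relative signals of 20.2 and 19.4 in replicates 3 and 7, and the weaker one, 706 bp away, had 1.99 and 2.92. Both lay between genes, 2596 and 1890 bp upstream of M163.11, and the snRNA gene M163.13 lay within 200 bp of the interval. Interval 12, at V 1471082 to 1472545, was also intergenic, 2909 and 3601 bp upstream of unc-60, which encodes an actin-depolymerizing ADF/cofilin. Its strongest summit had 9.41 and 12.3, and the weaker one, 692 bp away, 3.46 and 3.89.

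Interval 5, at X 11789872 to 11793744, had 5 summits, and the protein-coding 5′ end nearest to its strongest, that of rsd-3, was 6334 bp away. The strongest summit lay in the snoRNA gene C34E11.20, and the microRNA genes cel-mir-239a and cel-mir-239b were within 200 bp of the interval. Its relative signal was 14.9 in replicate 3 and 14.9 in replicate 7. The next summit, 648 bp away, had 7.84 and 7.10. The other 3 stayed at or below 1.56 where listed, and not all of them were listed in both replicates. Interval 3, at III 10989191 to 10990111 in an intron of the dynein heavy chain gene dhc-4, had 20.1 and 19.2 at its strongest summit. The weaker one, 201 bp away, had no summit within 100 bp in replicate 3 and 4.71 in replicate 7. Besides dhc-4, the snRNA gene R07E5.16 held a summit of interval 3.

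Interval 8, at IV 16644935 to 16646524, lay in the 5′ part of Y51H4A.13. Its 2 intron summits, 672 and 333 bp inside the gene, had 9.44 and 19.3 at the strongest and 3.99 and 5.57 at the next. A promoter summit 84 bp inside the gene had 0.80 and 0.333. Interval 10, at V 10807868 to 10808475 in the promoter of plrg-1, a homolog of a pre-mRNA splicing factor, had 12 and 13.4 at 240 bp upstream. Its weaker summit, at 446 bp upstream, had 0.602 in replicate 3 and 3.06 in replicate 7, a difference larger than its mean of 1.83.

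Interval 4, at I 7491610 to 7493513, ran across the whole of T28F4.5 and had 16.3 and 16.6 at its strongest summit, 164 bp inside that gene. Its other summits had 2.65 and 2.05, in the 5′ UTR, and 0.582 and 0.433, in an intron of T28F4.4. Interval 6, at I 12966161 to 12967196, belonged to tba-2, an alpha tubulin. Its strongest summit, in an intron 235 bp inside the gene, had 13.2 and 16.2, and the one 17 bp inside had 1.58 and 2.23. Interval 7, at IV 15646392 to 15647181, lay at the 5′ ends of Y105C5A.1272 and of a neighbour on the other strand. Its strongest summit had 13.9 and 12.7, and the weaker one, 44 bp inside Y105C5A.1272, had 2.47 and 3.34. A pseudogene also held a summit of interval 7.

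Interval 9, at V 13907074 to 13910006, covered all of C06B3.6. Its strongest summit, 3 bp inside C06B3.7, had 12.2 and 14.2. A summit in coding sequence of stdh-1, a steroid dehydrogenase family gene, had 4.44 and 3.8, and one in coding sequence of C06B3.6 had 0.911 and 0.270. Interval 11, at IV 654640 to 655536, lay between rpl-15, a large-subunit ribosomal protein gene, and K11H12.8 on the other strand. Its strongest summit had 13.0 in replicate 3 and 7.02 in replicate 7, and the weaker one, 201 bp away, 1.09 and 0.898.

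**Figure D3:**
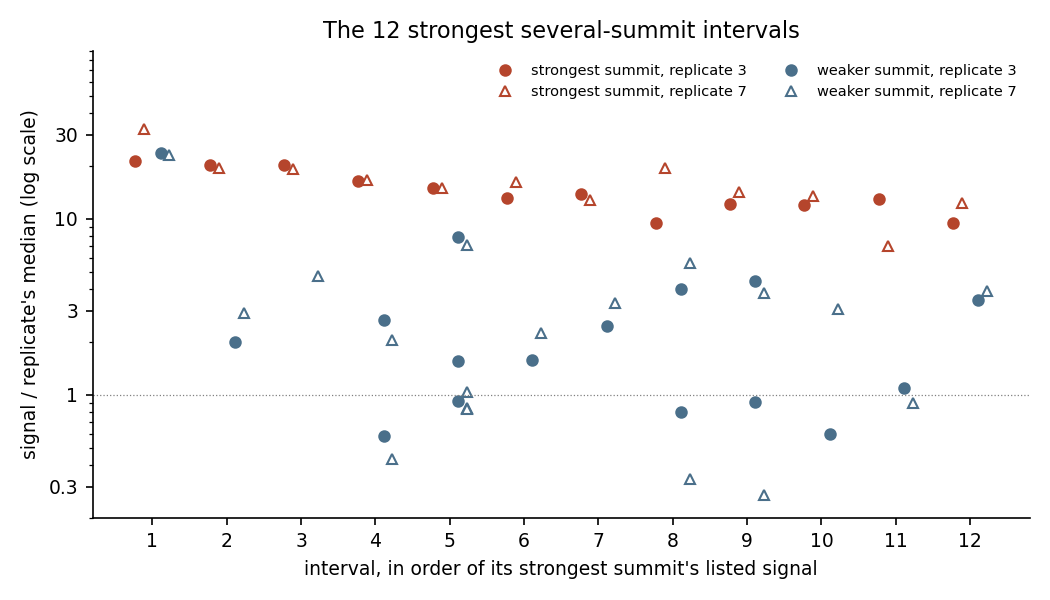
Relative signal (log scale) of each summit of the 12 strongest several-summit intervals in replicate 3 (filled circles) and replicate 7 (open triangles), with the strongest summit to the left of the weaker ones. A value of 1 is the replicate's median over the optimal list. Interval 1 has 2 summits above 20, and in every other interval the strongest summit lies above the weaker ones in each replicate that lists them.

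Of the 8 intervals with 5 or 7 summits, 4 held a whole protein-coding gene, those of hsp-1, mstr-1, F26A3.4 and C47E8.11. The widest interval, at II 10541761 to 10548487 (6727 bp), had 7 summits. They started in the promoter of pro-1, which encodes a WD-repeat protein needed for germline development, and ended in mnk-1, a MAP kinase-interacting kinase gene. Its strongest summit, 159 bp upstream of pro-1, had relative signals of 3.48 and 2.56. The next, 898 bp upstream, had 1.31 and 1.63, and the others had at most 1.31 and lay in a 3′ UTR, coding exons and an intron of mnk-1. Replicate 7 had no summit for 2 of the 7.

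The second interval with 7 summits, at II 8744152 to 8748623, lay over mak-1, a MAPK-activated protein kinase gene. Here 4 summits were in coding exons of mak-1 and had 0.638, 1.23, 0.667 and 1.31 in replicate 3. In replicate 7 the first and the fourth had 0.334 and 0.217, and the 2 between them were not listed. The strongest summit lay beyond the exons, 3316 bp from the mak-1 5′ end, with 2.93 and 2.21.

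At hsp-1, a constitutive Hsp70 chaperone gene, 5 summits spanned the whole gene (IV 17278152 to 17281993). The strongest, 395 bp upstream, had 7.14 in replicate 3 and 6.14 in replicate 7. In the coding exons 1 summit was missing in replicate 3 and had 1.69 in replicate 7, and the other had 0.16 and 1.68. Beyond the 3′ end a further summit had 2.04 and 3.70, and the last, in the 3′ UTR of nra-1, had 0.753 and 1.35. The exon summits were thus low or absent in replicate 3 and above the median in replicate 7.

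At the neighbouring genes kin-14, a tyrosine kinase gene, and mstr-1, all 5 summits (I 7078682 to 7083476) were separated in both replicates. The strongest, 54 bp upstream of kin-14, had 4.63 and 4.33, and the far one, 993 bp upstream of mstr-1, had 4.08 and 3.21. At ego-1, an RNA-dependent RNA polymerase gene of the germline, and F26A3.4 (I 7656115 to 7659694), the strongest summit had 4.87 and 3.10. A second summit in the ego-1 promoter had 0.375 and 1.1 and one in coding sequence of F26A3.4 had 1.19 and 0.417, while the other 2 were not listed in replicate 7. At C47E8.4, hsp-90 and gasr-8 (V 14685511 to 14689234) the strongest summit, 296 bp upstream of C47E8.4, had 4.73 and 1.89, and 3 of the other 4 were listed in 1 replicate only. As annotated, hsp-90, the Hsp90 chaperone gene, holds 4 of the 5 summits within its body, 1 of them in coding sequence, and has none in its own promoter. At ZK470.2 and nck-1, an SH2/SH3 adaptor gene (X 4144692 to 4149351), the strongest summit had 1.44 and 2.51, and 2 of the 5 were not listed in replicate 7.

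**Figure D4:**
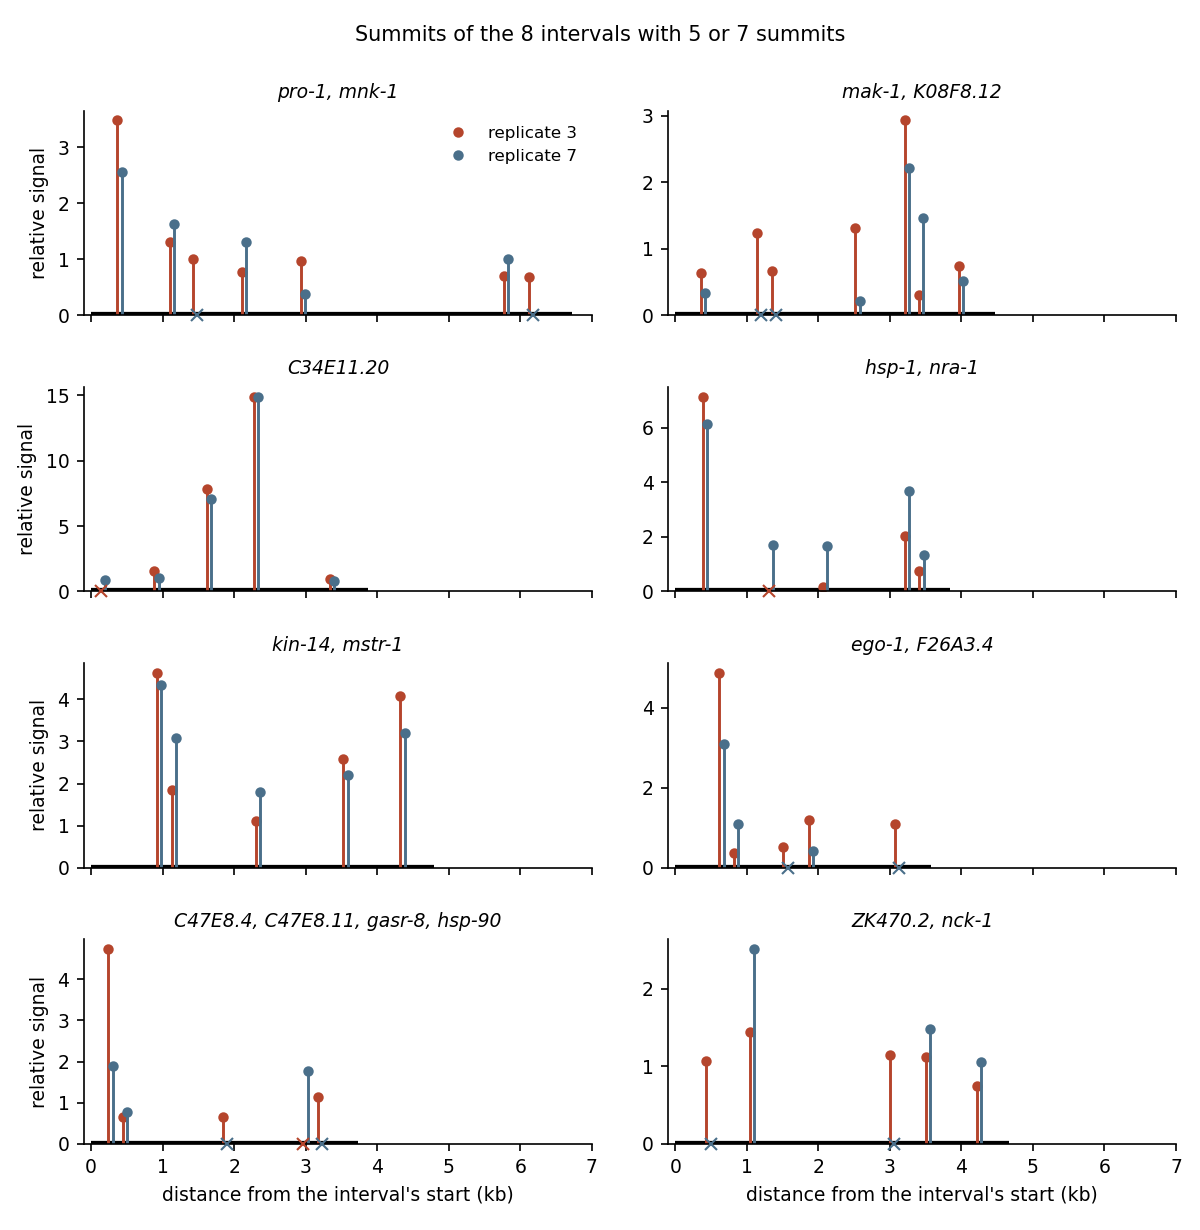
Summits of the 8 intervals with 5 or 7 summits, by distance from the interval's start in kb (black line, the interval). Stems give the relative signal in replicate 3 and replicate 7, drawn slightly apart, and a cross marks a summit with no match within 100 bp in that replicate. Replicate 3 and replicate 7 both peak at the C34E11.20 summit at 14.9, and 5 of the 8 intervals lack at least 1 summit in replicate 7.

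Among intervals with 4 summits, that of cpl-1, a cathepsin L protease gene (V 16592088 to 16595401), had 2.53 and 2.47 at its strongest summit, which lay 346 bp upstream of srh-269, and 2 of its 4 summits were not listed in replicate 3. The other, in M01H9.5 and M01H9.3 (IV 4467660 to 4470839), had 2.35 and 1.70 at its strongest and 2.27 and 1.63 at a 5′ UTR summit. At icl-1, the glyoxylate cycle enzyme gene (V 723480 to 728204), 3 summits had neighbouring distances of 1237 and 2284 bp, with 2.77 and 2.49 at the strongest, in the promoter of fbxb-72, and 1.52 and 1.44 in that of srh-2. The interval of W06H8.6 (V 6220732 to 6223992) had 2 summits 2296 bp apart, at 1.01 and 0.625, and 0.453 and 0.745.

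The strongest summits lay in promoters about as often as others did. A promoter here runs from 1000 bp upstream to 200 bp downstream of a protein-coding 5′ end, and 115 of 271 strongest summits were in one (42.4%, 36.7 to 48.4). The share was 43.2% for single-summit intervals and 43.2% over all intervals. For the weaker summits it was 38.4%. At least 1 summit was in a promoter in 127 intervals (46.9%) and every summit in 94, and 44 intervals had all summits between genes.

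The weaker summits were more often in exons than the strongest, mainly in wide-spaced intervals. Coding exons held 5.54% of strongest and 11.0% of weaker summits, against 4.29% of single summits. For 3′ UTRs the shares were 2.58% of strongest, 5.49% of weaker and 2.69% of single summits, and for introns 25.8%, 20.7% and 24.5%. The exon share was higher in wide-spaced intervals, where 18 of 110 weaker summits (16.4%, 10.6 to 24.4) and 0 of 54 strongest summits (0 to 6.64) were in coding exons. In close-spaced intervals it was 8.26% of weaker and 6.91% of strongest summits. The 18 wide-spaced exon summits came from fewer intervals, since those at mak-1, mnk-1, F26A3.4 and hsp-1 each supplied more than 1. Promoters held 28.2% of the weaker summits in wide-spaced intervals and 43.6% in close-spaced ones. Summits of 1 interval are neighbours and intervals are not replicates, so the Wilson intervals cover counting error only and no test was made.

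**Figure D5:**
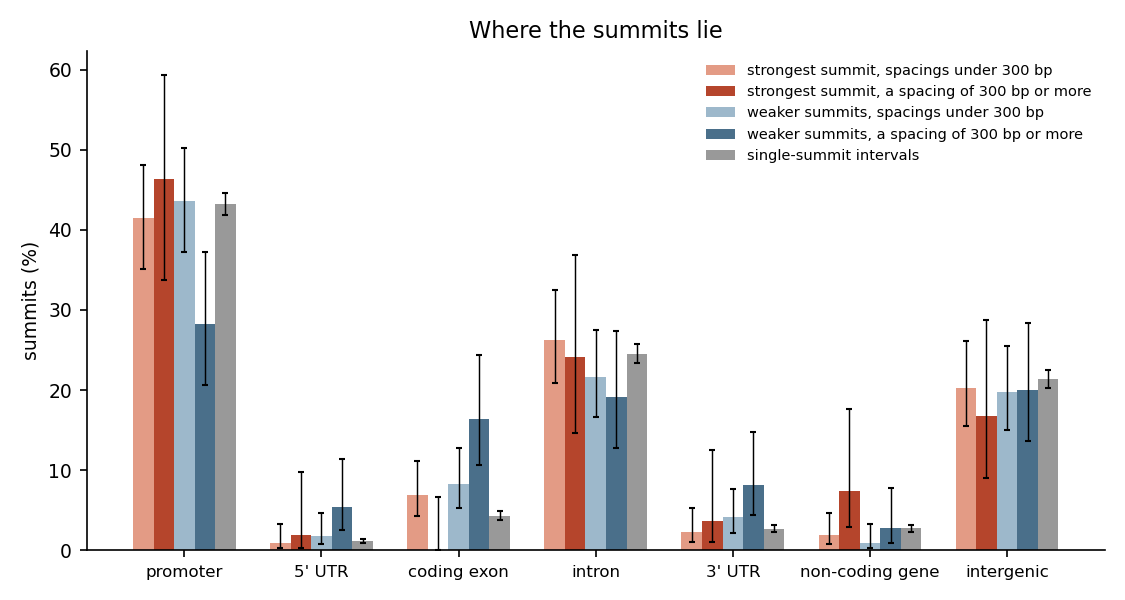
Percentage of summits in each annotation class, with the Wilson 95% interval for counting error, for strongest and weaker summits of close-spaced (under 300 bp) and wide-spaced intervals and for single-summit intervals. In wide-spaced intervals the coding exon share is 16.4% for weaker and 0 for strongest summits.

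In 71 intervals (26.2%) the summits fell into more than 1 class. In 65 intervals with 2 summits in 1 promoter, the weaker summit was upstream of the strongest in 29 and downstream in 36. The median position was 289 bp upstream of the 5′ end for the strongest (−289) and 283 bp upstream for the weaker (−283). Thus neither side was favoured beyond counting error, at 44.6% upstream (33.2 to 56.7).

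Several-summit intervals are wider, so the 5′ ends inside them are also given per length. A protein-coding 5′ end lay inside 33.2% of the several-summit and 19.2% of the single-summit intervals, yet per length there were 0.368 such ends per kb in several-summit and 0.564 in single-summit intervals. A whole protein-coding gene was inside 15 of the 271 (14 of them wide-spaced). No such count is given for single-summit intervals, so it is not read as a trait of the several-summit ones. Besides those named above, the genes inside include lgg-1, the Atg8 homolog of autophagy, and oaz-1, the ornithine decarboxylase antizyme. They also include lsm-7, an Sm-like protein, and fat-6, a fatty acid desaturase. These 4 were chosen after their values were seen.

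Protein-coding 5′ ends on opposite strands, both in the interval or within 200 bp of it, were found at 25 of the 271 intervals (9.23%, 6.33 to 13.3), against 5.29% of single-summit and 5.48% of all intervals. With no margin beyond the interval the count was 9 (3.32%), and among the top peaks of replicate 7 alone, without replicate 3, the share was 5.15% (7 of 136). Single-summit shares at these settings are not given, so 3.32% and 5.15% cannot be set against 5.29%. None of these shares is adjusted for interval width or signal. Among the 25 were rpl-15 with K11H12.8, the GTPase gene rab-11.1 with the ribosomal protein gene rpl-7, ran-1, the Ran GTPase, with dkc-1, the dyskerin homolog, and eef-2, translation elongation factor 2, with clsp-1. In 7 intervals (2.58%) the summits lay in promoters of different genes that no single promoter joined. These were C32D5.8 and lgg-1, ZK484.6 and oaz-1, kin-14 and mstr-1, ego-1 and F26A3.4, fbxb-72 and srh-2, cpl-1 and srh-269, and the C47E8.4 interval.

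A tRNA, snoRNA or snRNA gene was within 200 bp of 22 intervals (8.12%, 5.42 to 12), against 5.83% of single-summit and 5.94% of all intervals. Without replicate 3 the share was 13.2% (18 of 136), with no single-summit share given at that setting. The kinds differed. snoRNA genes, whose products guide RNA modification, were near 4.80% of several-summit and 1.86% of single-summit intervals, and snRNA genes near 2.21% and 0.353%. tRNA genes were near 1.11% of several-summit and 3.66% of single-summit intervals. Measured from the strongest summit alone, which does not grow with width, snRNA genes were within 200 bp of 2.21% (6 of 271) and 0.297% (16 of 5383), snoRNA genes of 2.21% and 1.5%, and tRNA genes of 0.738% and 3.59%. The snRNA genes include sls-2.1, sls-2.2, sls-2.3 and sls-2.8, which encode spliced leader 2 RNA for trans-splicing. These are multicopy genes, and the sources used here do not say how reads shared by near-identical copies were placed.

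In all, 173 protein-coding genes had a promoter summit from a several-summit interval, 5.81% of the 2980 genes with any promoter summit. By gene list, such summits were at 4 of the 66 cytosolic ribosomal protein genes with any promoter summit, 3 of 22 chaperones, 1 of 25 translation factors, 0 of 22 proteasome genes and 4 of 30 vesicle traffic genes. They were also at 2 of 11 tubulin and kinesin genes, 1 of 2 14-3-3 genes, 0 of 5 actins, 1 of 12 histones, 1 of 10 bZIP factors and 2 of 35 nuclear hormone receptors. None was at the 5 homeobox, 2 collagen, 4 neuropeptide and 3 stress and immune genes with a promoter summit. With 0 to 4 genes a list, no list can be set apart from the 5.81% over all genes.

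Signals of the named list members, in the units of the optimal list, were 3457 for rpl-15, 1104 for rpl-7, 1062 for rps-26 and 399.6 for rpl-30 among ribosomal protein genes. Chaperones had 2073 at hsp-1 and 676 and 449.8 at the J-domain genes dnj-29 and dnj-23. The elongation factor gene eef-2 had 799, and par-5, a 14-3-3 protein gene, 968. For tubulins, tbg-1 (gamma tubulin) had 732, and tba-2 had 470.1 at its promoter summit, the weaker one of its interval. Vesicle traffic genes were vps-60, of the ESCRT-III complex, at 1191, and the Rab GTPase genes rab-11.1 at 1104, rab-1 at 668 and rab-5 at 631. Others were the histone gene his-37 at 1669, the bZIP gene zip-2, which acts in the response to infection, at 481, and the nuclear hormone receptor genes nhr-131 at 947 and nhr-35 at 609. All lie between the lowest and the highest strongest-summit signal of the 271 (184 and 7891).

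The C/EBP core TTRCGYAA was rare at all summits. It was within 50 bp, on either strand, of 5 of 271 strongest summits (1.85%, 0.791 to 4.25), 1.52% of the weaker, 1.23% of single summits and 1.26% of all intervals' strongest summits. Its palindromic form TTGCGCAA was at 1.48%, 0.610% and 0.632% of strongest, weaker and single summits. No interval had TTRCGYAA at more than 1 summit. At the strongest summit of interval 2, printed above, TTGCGCAA and TTGCGAAA stand in the same window.

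TTGCGAAA, which came from an earlier search of these data, was far more frequent than the core, and more so at the strongest than at the weaker summits. It was within 50 bp of 55 of 271 strongest summits (20.3%, 15.9 to 25.5), 23 of 328 weaker ones (7.01%, 4.72 to 10.3) and 15.1% of single summits (15.3% over all intervals). It differs from TTRCGYAA at 1 of the 8 positions, the sixth, so no match of one is a match of the other. Of the 52 intervals with it at exactly 1 summit, that was the strongest in 43 (82.7%, 70.3 to 90.6). In 12 intervals it was at 2 or more summits. Wide-spaced intervals had it at 27.8% of strongest and 12.7% of weaker summits, and close-spaced ones at 18.4% and 4.13%. The centre of the nearest copy was a median of 17.5 bp from the summit at strongest, 21.5 bp at weaker and 13.5 bp at single summits. Strongest and weaker summits are defined by signal, and among single-summit intervals the share with TTGCGAAA rose with signal, as given below. Weaker summits were not compared with single summits of equal signal, so the contrast between strongest and weaker is a description only.

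Signal differs between these sets, so the share was also taken within the groups of 10% of intervals by signal. In the highest group 40.6% (39 of 96) of several-summit intervals and 55.9% (262 of 469) of single-summit intervals had TTGCGAAA at the strongest summit. In the next group the shares were 10.1% (8 of 79) and 28.6% (139 of 486), and in the third 10.2% and 17.4%. The Wilson intervals were 31.3 to 50.6 and 51.3 to 60.3 in the highest group, 5.22 to 18.7 and 24.8 to 32.8 in the next, and 4.44 to 21.8 and 14.4 to 20.9 in the third. The highest group runs from a signal of 1043 to 20103, so signal is not equal within it, and the difference was not tested. The 55 intervals with it at the strongest summit had a median signal of 1429.7 there and a median strongest-to-weakest ratio of 3.67. Those without it had 741 and 2.63.

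Other sequences were less frequent at the strongest summits. CACGTG, the E-box, was at 7.75% of strongest, 4.57% of weaker and 5.46% of single summits, and the GATA site WGATAR (W is A or T) at 13.7%, 20.7% and 21.7%. In the highest group by signal WGATAR was at 11.5% of several-summit and 13.6% of single-summit intervals' strongest summits, with overlapping counting intervals. The AP-1 site TGASTCA (S is C or G) was at 2.95%, 0.915% and 1.80%, TGACGTCA at 1.11%, 0.610% and 1.02%, TGATGCAA at 1.11%, 0.305% and 0.836%, GAGAGAGA at 4.43%, 4.57% and 4.92%, and AGACGCAG, also from the earlier search, at 4.43%, 3.96% and 6.97%. Median GC content of the 101-base windows was 43.6% at strongest, 40.6% at weaker and 43.6% at single summits, and soft-masked repeat sequence made up a median of 18.8%, 19.8% and 18.8%. A match says only that these letters occur in the window.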

How the data were processed

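The authors deposited narrowPeak lists from whole-animal ChIP-seq in 2 biological replicates, in ce10 and ce11. Per text files that the authors deposited, each replicate and the pooled alignments gave 30000 peaks against 1 control, and the optimal list holds those passing the irreproducible discovery rate (IDR) threshold. The aligner, peak caller and threshold are not given in the sources used here. Column 7 is the authors' signal value, set relative to the control, and column 10 the summit offset. The deposited signal values are not comparable between lists. The lists give no read counts, so depth, and with it counting precision, is unknown.

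Rows of the ce11 optimal list with the same ends were joined to intervals (1-based coordinates). Genes came from Ensembl release 115 and sequence from RefSeq, both WBcel235. A replicate summit matched within 100 bp. Where separate summits were counted, each served only its nearest summit. For shares found and relative signals, the same replicate summit could serve neighbouring summits. Each summit took 1 class, tried in this order: promoter, 5′ UTR, exon of coding sequence, 3′ UTR, intron, gene without coding sequence, none of these. Motif windows were 50 bp on each side, both strands. Shares carry Wilson 95% intervals, which cover counting error only. No test was made, since there is 1 group and intervals are not replicates. The intervals, gene lists and motifs were chosen with earlier results of these data known. Named were the 12 intervals of highest signal, the 10 with most summits, the 5 widest and the 3 of largest spacing, and up to 4 genes a list with the highest signal. Alternatives were the ce10 list, each replicate's top peaks, the stronger 50% of peaks, and other distances, promoters and motif windows. Added after the data were seen were summits at least 300 bp apart and a 25 bp match. The scripts, in Python 3.11.15 with pandas 2.3.3 and numpy 2.4.6, were tested on simulated lists.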

Additional observations from a re-analysis of the deposited data

How the results depend on the processing

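Of 82 recomputed values for 13 results, 47 stayed within 1.5 times the count reported or within the spread given with it, and 35 moved. With the 50% of peaks of highest signal there were 129 intervals in place of 271, with a median width of 905 bp, 7.75% with 3 or more summits and a strongest-to-weakest ratio of 2.28. In these, 84.8% of summits were in both replicates, 80.6% of intervals were separated in both, 48.8% had the strongest summit in a promoter and 16.3% an opposite-strand pair. With summits at least 300 bp apart 55 intervals were left, with a width of 1675 bp, a spacing of 769.5 bp, 23.6% with 3 or more summits, 63.6% separated in both replicates and 82.9% with the same strongest summit. Of them 12.7% had summits at different genes, 16.4% an opposite-strand pair, 14.5% a structural RNA gene and 5.45% TTRCGYAA at the strongest summit. Leaving out each replicate in turn gave 136 to 255 intervals, widths of 652 to 732 bp, spacings of 203 to 206 bp, 8.09% to 11.4% with 3 or more summits, ratios of 2.68 to 2.88, opposite-strand pairs at 5.15% to 8.24% and structural RNA genes at 6.67% to 13.2%. The low number, 136, is that of replicate 7 alone. A match within 50 bp gave 57.4% of summits in both replicates and 57.2% of intervals separated in both. Within 25 bp these were 36.9% and 32.5%, with 97.7% sharing the strongest summit, and within 150 bp 74.1% of summits were in both. The narrow promoter (500 bp upstream to 100 bp downstream) gave 30.3% of strongest summits in promoters and 1.11% of intervals with summits at different genes, and the wide one (2000 bp upstream) 51.7%. Opposite-strand pairs within the interval itself were at 3.32%. No paired analysis was possible because the study has 1 group. Unknown depth limits what the absence of a summit from a replicate's list can show.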
